A study of Arabidopsis thaliana with 6 samples.

Results

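Actin forms the thin filaments of the plant cytoskeleton, along which myosin motors carry organelles and vesicles and on which the tip growth of root hairs and pollen tubes depends. Arabidopsis thaliana carries a family of actin genes that falls into a vegetative class, with ACT2, ACT7 and ACT8 active in leaves, stems and roots, and a reproductive class, with ACT11 and ACT12 among its members, known mostly from pollen and ovules. ACT2 is the isoform whose loss is known for root hair defects. The actin probe sets described here are 9 of the 22810 probe sets on the Affymetrix ATH1 array: the 6 control probe sets with Actin in their name, a probe set taken as that of ACT2, and the single-gene probe sets of ACT11 (AT3G12110) and ACT12 (AT3G46520). They were chosen by name and annotation, with earlier results of these data known.

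The groups were 3 samples of actin2-5, a mutant of ACT2 also labelled wavy, and 3 of wild type, ecotype Columbia. Both were seedlings harvested whole at 8 days from diluted Murashige and Skoog medium, with 1 array per sample. The samples are called biological replicates, but nothing says how many plants or plates each holds, so the p-values rest on the spread between these samples. The labels name no ecotype for the mutant and do not say what its lesion does to the transcript. The level of an ACT2 probe set therefore does not check the genotype labels.

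All values are log2 expression values from RMA, a method that corrects the background, gives the arrays a common distribution and summarises the probes of each probe set. Differences are actin2-5 minus wild type. A probe set is called when its limma p, two-sided and adjusted over the whole table by the Benjamini-Hochberg method, is under 0.05. Limma draws each probe set's variance towards a common value, so its SE, interval and p also depend on the other probe sets. In all, 750 of 22810 probe sets (3.29%) were called, 497 of them higher (2.18%) and 253 lower (1.11%) in actin2-5. Array medians lay between 6.43 and 6.465. The 25S ribosomal RNA control varied widely over the actin2-5 arrays, at 10.63, 7.75 and 9.82, on both sides of its 8.21, 8.13 and 8.20 in wild type.

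No actin probe set was called: 0 of 9 by limma's adjusted p, against the 3.29% of the whole table (2.18% higher and 1.11% lower). Of the 9, 1 had an unadjusted p under 0.05, against 15.3% of all probe sets. The 3 actin2-5 and the 3 wild-type values did not overlap for 2 of the 9, those of ACT2 and ACT11, against 19.1% of all probe sets. Both lay lower in actin2-5, as 10.8% of all probe sets did without overlap, while 8.34% lay higher. The median change of the 9 was -0.0033, beside -0.03 over the whole table. A share this close to the background is not a result about the actin probe sets.

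The ACT2 probe set stands for the mutated gene. It is taken as ACT2 because the choice of probe sets names it so; the platform annotation used here does not list it, and its probes were not compared with the transcript. It read 12, 11.88 and 11.91 in actin2-5 replicates 1, 2 and 3, and 12.17, 12.05 and 12.09 in wild-type replicates 1, 2 and 3. Every mutant array lay below every wild-type array, but the highest mutant value and the lowest wild-type value were close, at 12 and 12.05. Mutant arrays averaged 11.93 ± 0.06 and wild-type arrays 12.10 ± 0.06 (SD, n = 3 each). The change was -0.17 ± 0.08 (SE; limma adjusted p = 0.356), or 0.887-fold, with a 95% interval of 0.781-fold to 1.01-fold. The probe set was thus not called, and an equal level in both genotypes lies within its interval.

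ACT11, which encodes an actin of the reproductive class, read above the arrays' upper quartiles of 8.11 to 8.16 in these whole seedlings and had the largest change among the 9. It read 8.73, 8.70 and 8.58 in actin2-5 and 9.03, 9.04 and 8.92 in wild type. The 3 mutant arrays were all lower than the 3 wild-type arrays, and the gap between the groups was wider than the range within either of them. Mutant arrays averaged 8.67 ± 0.08 and wild-type arrays 8.997 ± 0.067 (SD, n = 3 each). The change was -0.33 ± 0.08 (SE; limma adjusted p = 0.0725, unadjusted p = 0.00304), or 0.797-fold, with a 95% interval of 0.70-fold to 0.908-fold. The interval of this single probe set leaves out an equal level, while the p adjusted over the whole table misses the threshold. With the 25S control as a covariate, ACT11 was at -0.32 and ACT2 at -0.22 (limma adjusted p = 0.321 and 0.537). In RNA from whole seedlings, fewer cells that express the gene and less RNA per cell cannot be told apart.

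ACT12, known as a pollen actin, was dim in both groups. It read 4.35, 4.07 and 4.13 in actin2-5 and 4.11, 4.19 and 4.28 in wild type, below the arrays' lower quartiles of 4.50 to 4.58. The groups overlapped throughout, with the highest and the lowest value both on mutant arrays. The change was -0.01 ± 0.10 (SE; limma adjusted p = 0.976), but positive once the arrays were quantile-normalized again (0.045). How far RMA compresses a change at so low a level was not measured here, and an adjusted p this high does not show that ACT12 was equal in both genotypes.

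**Figure D1:**
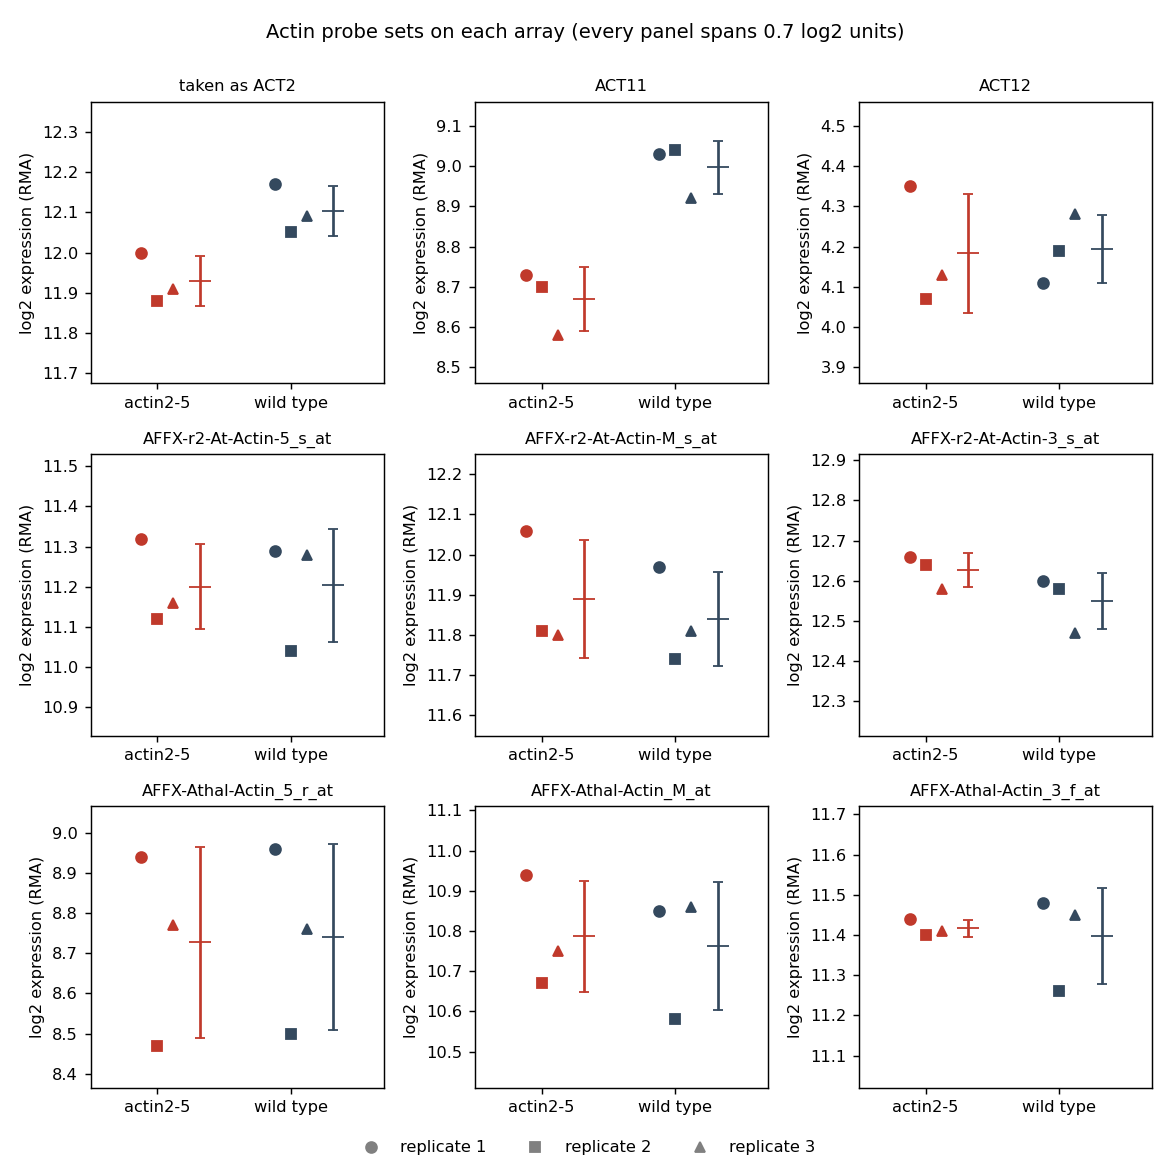
Log2 expression (RMA) of the 9 actin probe sets on each array, actin2-5 on the left and wild type on the right of each panel, with the marker shape giving the replicate number and the bar beside the points the mean ± SD (n = 3). Every panel spans the same 0.7 log2 units, so distances can be compared; the probe set taken as ACT2 and that of ACT11 are the panels in which the groups do not overlap.

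The 6 control probe sets read parts of actin transcripts from the 5′ end over the middle to the 3′ end, and are placed on the array to show how evenly RNA was copied along its length. By Affymetrix's naming, an ID ending in s_at or f_at holds probes that several transcripts share. AFFX-Athal-Actin_M_at and AFFX-Athal-Actin_5_r_at carry neither ending. The controls that do may sum the signal of more actin genes than ACT2. The sources used here do not name those genes. The 6 controls come as an r2-At trio and an Athal trio.

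In the r2-At trio, the 3′ probe set AFFX-r2-At-Actin-3_s_at read 12.66, 12.64 and 12.58 in actin2-5 and 12.60, 12.58 and 12.47 in wild type. The groups overlapped, with the lowest mutant array level with a wild-type one. Its change of 0.08 ± 0.08 (SE; limma adjusted p = 0.725) was the largest of the 6 controls and opposite in sign to that of the ACT2 probe set. The middle probe set AFFX-r2-At-Actin-M_s_at read 12.06, 11.81 and 11.80 in actin2-5 and 11.97, 11.74 and 11.81 in wild type, a change of 0.05 ± 0.10 (limma adjusted p = 0.873). The 5′ probe set AFFX-r2-At-Actin-5_s_at read 11.32, 11.12 and 11.16 in actin2-5 and 11.29, 11.04 and 11.28 in wild type, a change of -0.0033 ± 0.0992 (limma adjusted p = 0.989). For both, the mutant and wild-type values overlapped over most of their range.

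The Athal trio showed the same overlap. Its 3′ probe set AFFX-Athal-Actin_3_f_at read 11.44, 11.40 and 11.41 in actin2-5 and 11.48, 11.26 and 11.45 in wild type, a change of 0.02 ± 0.09 (SE; limma adjusted p = 0.948). Its middle probe set AFFX-Athal-Actin_M_at read 10.94, 10.67 and 10.75 in actin2-5 and 10.85, 10.58 and 10.86 in wild type, a change of 0.02 ± 0.11 (limma adjusted p = 0.952). Its 5′ probe set AFFX-Athal-Actin_5_r_at read 8.94, 8.47 and 8.77 in actin2-5 and 8.96, 8.50 and 8.76 in wild type, a change of -0.01 ± 0.14 (limma adjusted p = 0.979). This last probe set varied most among the 9, by 0.49 over the 6 arrays, and nearly all of that was spread within the groups.

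For most of these probe sets, the spread within the groups had a form that the 2 genotypes had in common. Of the 6 controls, 5 read highest on replicate 1 in both genotypes, and 4 read lowest on replicate 2 in both. The ACT2 probe set followed the same order, at 0.07, -0.05 and -0.02 from the group mean in actin2-5 and 0.07, -0.05 and -0.01 in wild type. The 6 controls all read parts of actin transcripts, so they are not 6 separate observations. How many of all probe sets share such an order was not counted. ACT11 had another order, with replicate 3 lowest in both genotypes, at -0.09 in actin2-5 and -0.08 in wild type. ACT12 shared no order between the genotypes: its replicates 1, 2 and 3 lay at 0.17, -0.11 and -0.05 from the group mean in actin2-5 and at -0.08, -0.0033 and 0.09 in wild type, so that replicate 1 was its highest mutant and its lowest wild-type array. The pooled within-group SD of the 9 ran from 0.06 to 0.23 with a median of 0.12, and the median over all 22810 probe sets was also 0.12.

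**Figure D2:**
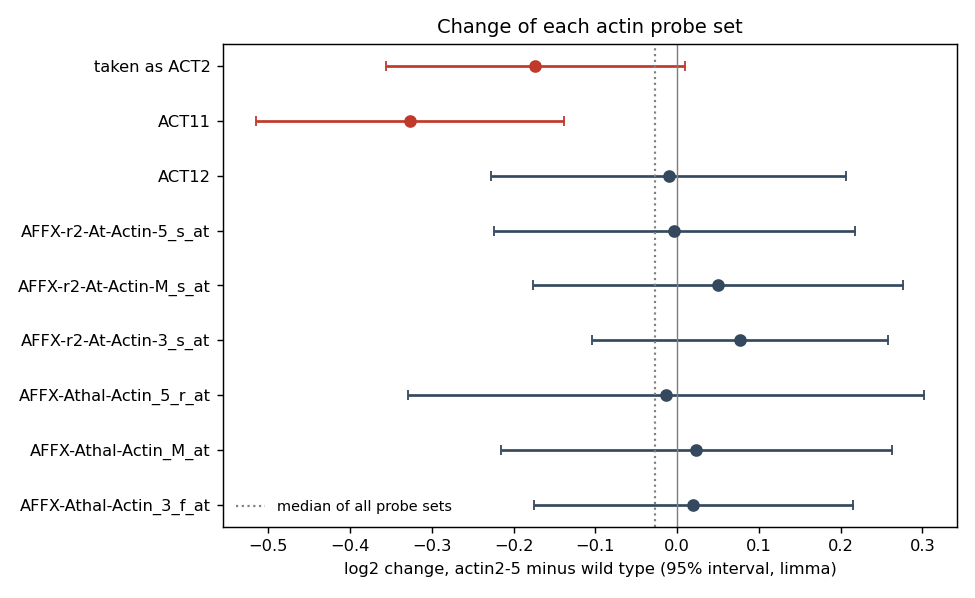
Log2 change of each actin probe set, actin2-5 minus wild type, as points with 95% intervals from limma; the dotted line is the median change of all probe sets, and red marks the 2 probe sets whose groups do not overlap. The interval of ACT11 lies below 0, that of ACT2 just reaches past it, and those of the 6 controls and ACT12 span it.

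A gap that widens between the 3′ and the 5′ end is the usual sign of RNA that was shorter or less completely copied. The level of one probe set cannot be set against that of another, so only the change of the gap between arrays is read. In the r2-At trio the 3′ minus 5′ gap was 1.34, 1.52 and 1.42 in actin2-5 and 1.31, 1.54 and 1.19 in wild type. The gap differed by 0.08 between the genotypes (exact permutation test, two-sided, p = 0.5). In the Athal trio it was 2.50, 2.93 and 2.64 in actin2-5 and 2.52, 2.76 and 2.69 in wild type, a difference of 0.03 (exact permutation test, two-sided, p = 1). Both values are 1 after Benjamini-Hochberg adjustment over these 2 tests, and 3 arrays against 3 cannot go below 0.1. In both trios and both genotypes replicate 2 had the widest gap.

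The same gap was computed for the control transcripts of GAPDH, a glycolytic enzyme, and of ubiquitin. For GAPDH it differed between the genotypes by 0.02 in the r2-At pair and 0.0067 in the Athal pair, and for ubiquitin by 0.05 and 0.03. The gaps of the genotypes overlapped in all 4. In both Athal pairs the gap was highest on replicate 2 of both genotypes. In both r2-At pairs it was so in wild type only. In actin2-5 the r2-At gap was highest on replicate 1 for GAPDH and on replicate 3 for ubiquitin. Of the 10 GAPDH and ubiquitin controls, 0 were called by limma, against 3.29% of all probe sets. An unadjusted p under 0.05 was reached by 0 of them, against 15.3%. Their changes lay between 0 and 0.19. The groups did not overlap for 1 of the 10, against 19.1% of all probe sets. This was the middle Athal control of GAPDH, at 12.42, 12.39 and 12.41 in actin2-5 and 12.36, 12.03 and 12.26 in wild type.

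**Figure D3:**
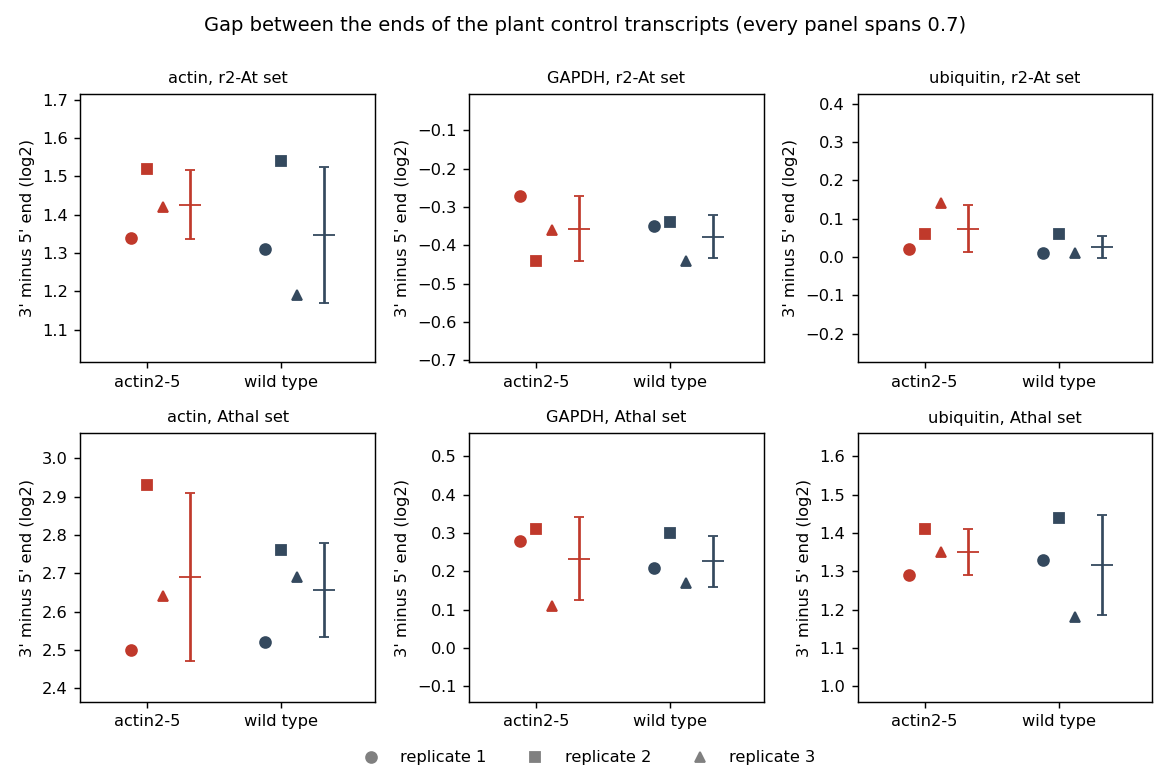
The 3′ minus 5′ gap in log2 units on each array for the actin, GAPDH and ubiquitin controls, actin2-5 left of wild type, r2-At sets in the upper row and Athal sets in the lower one; marker shapes give replicate numbers and bars the mean ± SD (n = 3). The genotypes overlap in every panel, and the actin gaps are widest on replicate 2 of both.

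The ACT2 probe set was also set against the 3′ controls within each array, to see whether both moved alike. The value of the ACT2 probe set minus that of the r2-At 3′ control was -0.66, -0.76 and -0.67 in actin2-5, against -0.43, -0.53 and -0.38 in wild type. Against the Athal 3′ control the gap was 0.56, 0.48 and 0.50 in actin2-5 and 0.69, 0.79 and 0.64 in wild type. In both, every mutant array was lower than every wild-type array, with mean differences of -0.25 and -0.19. The ACT2 probe set alone already lay lower without overlap, so both gaps partly repeat its values and are no separate support. The gap of ACT2 to ACT11 was 3.27, 3.18 and 3.33 in actin2-5 and 3.14, 3.01 and 3.17 in wild type. It was also without overlap but in the other direction, higher in actin2-5 by 0.15. These gaps were formed after the values had been seen and carry no test.

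The genes whose profile over the 6 arrays came nearest to these probe sets were sought among 5913 single-gene probe sets above the median level for ACT2, and 5912 for ACT11. Nearness was the root mean square distance between values centred on their own mean. For ACT2 the 5 nearest were AT3G27050 at a distance of 0.02, AT2G41830, AT5G44020, SPK1 and, at 0.04, AT1G04800. SPK1 read 7.47, 7.37 and 7.46 in actin2-5 and 7.64, 7.57 and 7.54 in wild type. Its change was -0.15 ± 0.08 (SE; limma adjusted p = 0.428), and 0 of the 5 were called.

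For ACT11 the 5 nearest were AT1G77090 at a distance of 0.03, AT1G52590, AT1G01320, AT1G15260 and, at 0.06, AT5G57170. AT1G52590 fell by 0.37 ± 0.08 (SE; limma adjusted p = 0.0328) and AT1G15260 fell by 0.40 ± 0.09 (limma adjusted p = 0.0415). The call of AT1G52590 was lost when any of the 6 arrays was left out, and that of AT1G15260 for 5 of the 6. With the 25S covariate the changes were as large, at -0.38 ± 0.11 for AT1G52590 and -0.43 ± 0.12 for AT1G15260. The SEs were larger and both calls were lost (limma adjusted p = 0.185 and 0.175). The genes near ACT2 and ACT11 were picked for profiles like theirs, so the direction and size of their changes follow from the choice. Their adjusted p values are therefore no separate support. The likeness rests on 6 arrays of 2 groups and is a description.

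Of the 9 actin genes listed, ACT11 and ACT12 have a single-gene probe set named here, ACT2 has the unlisted one described above, and ACT1, ACT3, ACT4, ACT7, ACT8 and ACT9 were not analysed here. Proteins that act on actin were counted beside them. A listed gene counts as measured when the platform annotation used here gives it a single-gene probe set. The others may still be on the array under an unlisted or shared probe set. Of 79 listed genes of such proteins, 19 were measured and 0 were called in either direction by limma's adjusted p, against 3.29% of all probe sets. An unadjusted p under 0.05 was reached by 2 of the 19, against 15.3% of all probe sets. Their median change was -0.03, beside -0.03 over the whole table. Profilin and ADF genes, which encode the main binders of actin monomers, and the actin-related proteins were not analysed here.

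Among filament nucleators, 3 of 15 were measured. CRK, a subunit of the Arp2/3 complex that starts branched filaments, read 7.65, 7.74 and 7.83 in actin2-5 and 7.46, 7.49 and 7.60 in wild type. The mutant arrays all lay above the wild-type ones, as for 8.34% of all probe sets, at a change of 0.22 ± 0.09 (SE; limma adjusted p = 0.246). PIR121, of the SCAR complex that activates Arp2/3, was at 0.06 ± 0.09. The formin gene AT2G43800, the only one of 7 with an annotated single-gene probe set, was at 0.07 ± 0.08.

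Among 19 bundling and capping proteins, 9 were measured, with a median of -0.09. The LIM-domain bundlers PLIM2a and PLIM2b were at -0.21 ± 0.08 and -0.21 ± 0.10 (SE; limma adjusted p = 0.255 and 0.35). Of 11 myosins, 4 were measured, with a median of -0.06. The class XI motor gene XI-I was at 0.23 ± 0.12 and the class VIII gene VIIIB at -0.21 ± 0.10 (limma adjusted p = 0.403 and 0.342). For PLIM2a and VIIIB the mutant arrays all lay below the wild-type ones, as for 10.8% of all probe sets. AT2G01330, which encodes an actin-interacting protein, was at 0.09 ± 0.11. It was 1 of 2 measured among the 19 listed genes of profilins, ADFs and their partners.

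**Figure D4:**
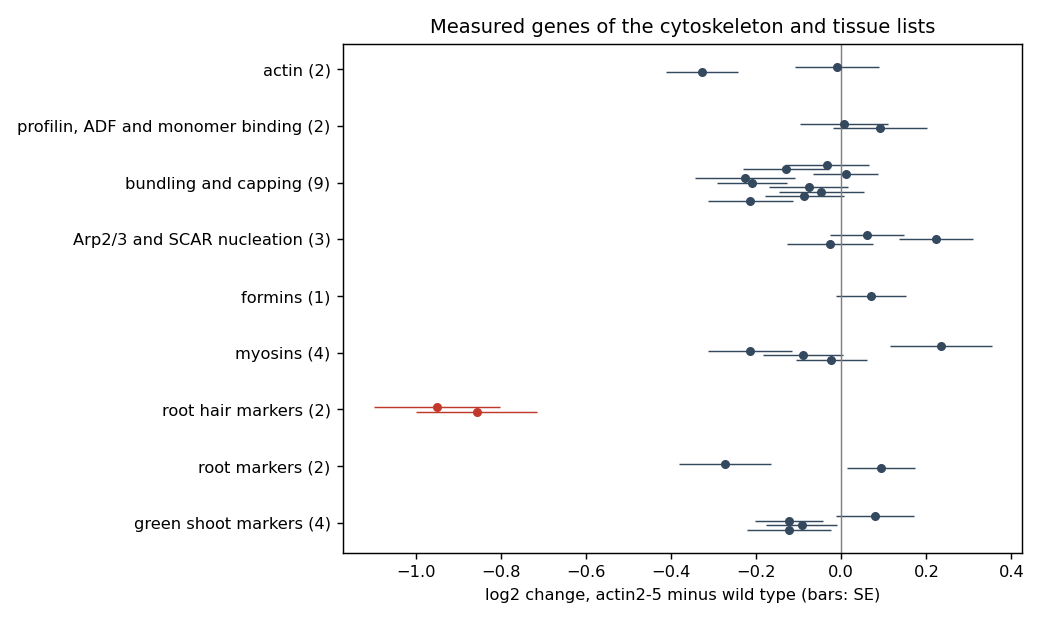
Log2 change, actin2-5 minus wild type, with SE, of every measured gene on the cytoskeleton and tissue lists, each list with its number of measured genes in brackets; red marks genes called at an adjusted p under 0.05. The 2 called genes are both root hair markers, and the cytoskeleton genes lie within 0.33 of 0.

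Tissue markers bear on actin because its isoforms differ between tissues. The 4 green shoot markers and the 2 root markers were bright in both groups, and 0 of these 6 were called, against 3.29% of all probe sets. The groups did not overlap for LHCB4.2 and NAI2, lower in actin2-5, and for PYK10, higher there. Groups without overlap were seen for 19.1% of all probe sets. Markers of pollen and flower were not analysed here. Of 7 root hair markers 2 had an annotated single-gene probe set, and both fell. EXPA18, a root hair expansin, read 6.31, 6.29 and 6.24 in actin2-5 and 6.83, 7.39 and 7.47 in wild type, at -0.95 ± 0.15 (SE; limma adjusted p = 0.00639). EXPA7, another root hair expansin, read 6.85, 6.78 and 6.69 in actin2-5 and 7.28, 7.69 and 7.92 in wild type, at -0.86 ± 0.14 (limma adjusted p = 0.00913). The call of EXPA7 was lost without actin2-5 replicate 2 or 3 (limma adjusted p = 0.0546 and 0.0577). With the 25S covariate the changes were of the same size, at -0.95 ± 0.20 for EXPA18 and -0.87 ± 0.19 for EXPA7. The SEs were larger and both calls were lost (limma adjusted p = 0.0621 for EXPA18 and 0.0769 for EXPA7).

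The 2 root hair markers summed to 12.93 to 13.16 on the log2 scale in actin2-5 and to 14.11 to 15.39 in wild type. Within wild type, both were lowest on replicate 1, on which the ACT2 probe set was highest and ACT11 was between the others. Within actin2-5, both markers were highest on replicate 1, as were the ACT2 probe set and ACT11. The root markers went both ways, NAI2 at -0.27 ± 0.11 and PYK10 at 0.09 ± 0.08, and summed to 23.29 to 23.45 in actin2-5 and 23.47 to 23.75 in wild type. The part of these tissues in the values of ACT11 and ACT2 was not tested.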

How the data were processed

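The deposited log2 values came from the authors' RMA (affy package), per the submitters' processing notes, with no version stated there. Values were used as deposited, one per probe set and array. Precision is limited by having only 3 arrays a group. The comparison used lmFit and eBayes of limma 3.58.1 under R 4.3.3 over all 22810 probe sets, control probe sets included, and adjusted over all of them. The code was tested on simulated data. Names came from the platform annotation (13513 single-gene probe sets, 503 with several genes, 8794 unlisted), updated through RefSeq's TAIR10.1 table; a gene with several probe sets took the brightest. All actin probe sets are named; other lists are given by counts, with at most 4 members of smallest p, and the 5 nearest profiles by distance. Members, lists and alternatives were chosen with earlier results of these data known. Alternatives were 2 normalizations, 2 dim filters, another prior, array weights, a replicate block, the 25S covariate, other controls left out, each array left out, and other thresholds. Sequences and coordinates are not used here. Figures were drawn with matplotlib 3.10.9.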

Additional observations from a re-analysis of the deposited data

How the results depend on the processing

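In 15 alternative settings (13 for ACT12, which both dim filters drop), 0 actin probe sets were called by limma's adjusted p under 0.05; at a threshold of 0.10, 1 was, ACT11. ACT11 stayed negative throughout, at -0.36 to -0.28 (adjusted p = 0.0557 with only probe sets above the median, to 0.321 with the 25S covariate), as did ACT2, at -0.22 to -0.14 (adjusted p = 0.259 to 0.694). The r2-At 3′ control stayed positive, at 0.04 to 0.11. The other controls and ACT12 took either sign. With array weights the Athal 3′ and middle controls were at -0.0046 and -0.0392. With the 25S covariate the Athal and r2-At middle controls were at -0.0815 and -0.0361, the Athal 5′ control at -0.213 ± 0.148 (SE), its lowest value in any setting, and ACT12 at -0.112 ± 0.117. ACT12 was at 0.045 with repeated quantile normalization. Leaving out 1 array gave -0.0483 to 0.0617 for the Athal 3′ control, -0.133 to 0.115 for the Athal 5′, -0.0683 to 0.0817 for the Athal middle, -0.085 to 0.04 for the r2-At 5′, -0.035 to 0.115 for the r2-At middle and -0.0933 to 0.0467 for ACT12. The difference in the 3′ minus 5′ gap was 0.00167 to 0.177 in the r2-At trio, and -0.0867 to 0.128 in the Athal trio. Causes were not tested.

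Calls over all probe sets, 750 as reported, became 284 with the 25S covariate and 291 to 896 with 1 array left out, the lowest without actin2-5 replicate 2; without actin2-5 replicate 3 they numbered 308. Same-number deviations from the group mean correlated at 0.0614, 0.0866 and 0.0844 over all probe sets. Among the arrays of the other genotype, each of the 6 correlated best in these deviations with the one of its own number. These 6 matches are not separate observations, because deviations are taken from each group's own mean. They are a hint from the data that no label states. Same-number differences were -0.17, -0.17 and -0.18 for ACT2 and -0.30, -0.34 and -0.34 for ACT11. With the replicate block 906 probe sets were called, ACT11 was at -0.33 (adjusted p = 0.0792) and ACT2 at -0.17 (adjusted p = 0.385), the gap differences were 0.08 and 0.03, and the block changed no actin call; it ended that of AT1G52590 (adjusted p = 0.0525).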
